A study of Danio rerio with 33 samples.

Results

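The RNA of adult wild-type zebrafish ovary was set against that of wild-type embryos at the 10-somite stage, when the body axis has formed and the first blocks of trunk muscle have been laid down. The comparison uses 6 of the 33 libraries of the series, 3 of ovary and 3 of uninjected embryo, taken by their labelled genotype, tissue and age. The series was made to study Kctd15, an inhibitor of AP-2 transcription factors in neural crest development, and its other libraries come from embryos injected with AP2, AP2-P59 or kctd15 RNA, from kctd15 mutant embryos, ovary and testis, and from wild-type testis. Embryos were staged at 28.5 degrees, and the labels give no strain, no adult age beyond "adult" and no number of animals in a pool. They call the 3 samples of a group biological replicates without saying whether they came from separate fish or clutches, so the p-values here measure the spread between these samples.

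A growing oocyte stores messenger RNA for the embryo, because the early embryo divides before its own genome is transcribed. At the maternal-to-zygotic transition the stored RNA is degraded in large part, new transcripts appear, and some genes replace their maternal RNA with their own. Germ plasm, a cluster of RNA and protein in the egg, is passed to the cells that become primordial germ cells, where some RNAs cleared elsewhere are protected. The ovary also holds follicle cells, blood and connective tissue, and in this bulk RNA fewer cells of a type and less RNA per cell cannot be told apart.

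Levels are given in CPM, the reads of a gene scaled to one common library total, so each is a share of the library and not a number of molecules per egg or embryo, and it is not corrected for transcript length. A log2 difference is ovary minus embryo with its standard error. A gene is called higher or lower in ovary at a Benjamini-Hochberg adjusted p under 0.05 in edgeR's quasi-likelihood test. The libraries held between 15351818 and 19306795 assigned reads. RNA was selected by its poly(A) tail, so a longer tail and a higher abundance cannot be told apart, and RNA present at both stages cannot be divided into persisting maternal and new transcripts.

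The tissue labels were checked with marker genes of each tissue. Summed over 7 oocyte markers the ovary libraries held 6561, 4600 and 4653 CPM and the embryo libraries 17.3, 22.4 and 9.21. Summed over 7 embryo markers the order was opposite, with 31.5, 26 and 27.7 CPM in ovary and 8641, 7269 and 7614 in embryo. The 17 testis markers summed to between 23.4 and 44.3 CPM in ovary against 3032 to 5376 in wild-type testis. Ovary replicate 1 carried more liver-type RNA than the other ovaries, with vtg1, a yolk protein precursor made in the liver, at 1947 CPM against 242 and 5.70 in replicates 2 and 3. Among the embryos replicate 2 had the highest sum of the oocyte markers, while replicate 1 had the highest share of reads from the 308 genes over 100-fold higher in ovary that are described next.

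The deposited counts cover 30490 genes, of which 21186 had enough reads to test. The ovary was higher for 7686 of them, 36.3%, and lower for 8485, 40.1%, so a call either way, made for 76.3%, was the usual outcome. The 3 ovary and 3 embryo values did not overlap for 79.4% of the genes tested, and the median log2 difference over all of them was -0.13. More than 10-fold differences were called for 1873 genes higher and 3272 lower in ovary. Genes higher in ovary made up 64.5, 63.9 and 64.4% of the reads of the ovary libraries and still 15.5, 15.3 and 15.9% of those of the embryos. Genes lower in ovary made up 18, 18.4 and 18.3% of ovary reads and 66.7, 66.7 and 66.1% of embryo reads.

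Most RNAs that were higher in ovary were still detected in the embryo. Among the 5072 such genes that averaged 20 CPM or more in ovary, the embryo level was under 1% of the ovary level for 351, from 1 to 10% for 645, from 10 to 50% for 2892 and at least 50% for 1184, with a median of 30.7%. In the opposite direction 3490 genes had at least 20 CPM in embryo, and their median ovary level was 22.7% of the embryo level. Complete or nearly complete presence in 1 tissue was described with a stricter limit, at least 5 CPM in all 3 libraries of one tissue and under 1% of that tissue's mean in every library of the other. This held for 308 ovary genes, 1.01% of the table, and for 352 embryo genes, 1.15%. The 308 ovary genes took up 17.8, 16.5 and 18.3% of the reads of the ovary libraries and 0.0604, 0.0329 and 0.0299% of those of the embryos. They include the liver-type gene vtg1, which was highest in ovary replicate 1. The 352 embryo genes took up 7.13, 6.6 and 6.68% of embryo reads and 0.0228, 0.0157 and 0.0131% of ovary reads. In each case replicate 1 of the tissue with little signal was the highest of the 3. A further description took RNAs found in 1 tissue only, at least 1 CPM in all 3 libraries and under 0.1 CPM in each library of the other tissue, and this held for 131 ovary genes, 0.43% of the table, and 251 embryo genes, 0.823%.

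**Figure D1:**
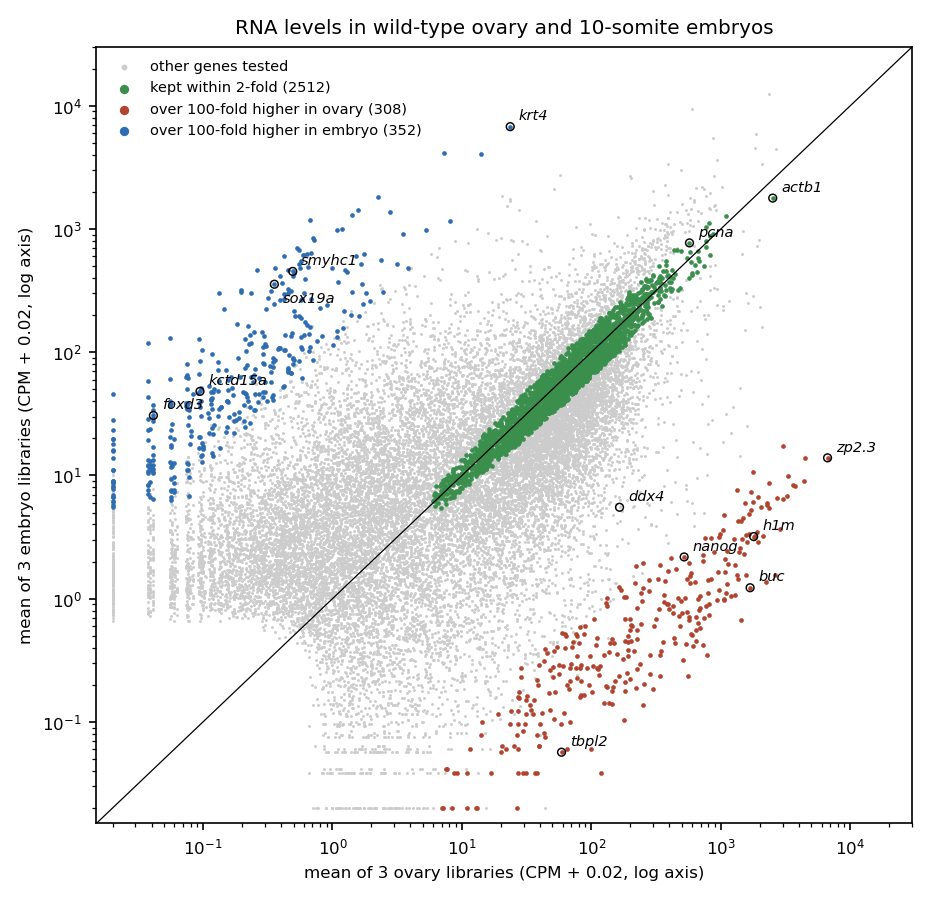
Mean level in 3 wild-type embryo libraries against mean level in 3 wild-type ovary libraries for every gene tested, both in CPM plus 0.02 on log axes. Red points are the 308 genes over 100-fold higher in ovary, blue points the 352 over 100-fold higher in embryo and green points the 2512 kept within 2-fold, which lie along the diagonal.

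The 12 named genes with the largest log2 differences in favour of ovary (at least 20 CPM) included the organiser of germ plasm, regulators of stored RNA and cell division factors. Buc, the scaffold protein of the oocyte's Balbiani body and germ plasm, had 1917, 1481 and 1654 CPM in the ovaries and 3.18, 0.166 and 0.275 in the embryos, a log2 difference of 10.51 ± 0.98 (edgeR adjusted p = 3.99e-05). All 3 ovaries lay far above all embryos, and embryo replicate 1 was the highest embryo. The TFIIF subunit gene gtf2f2b had 33.1, 22.4 and 25 CPM in the ovaries and no read in any embryo, at least 463-fold higher against a floor of 3 counts over the group. The chromosomal passenger gene birc5b, needed maternally for the first cleavages, had 236, 255 and 279 CPM in the ovaries against 0.324, 0.110 and 0.110 (log2 10.46 ± 0.30). The range of each group was narrow beside the distance between them.

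The others were cdca9, bco2b (a carotenoid-cleaving dioxygenase), gbgt1l1 (a glycosyltransferase), fam65c, tbpl2, tmprss4b (a serine protease), btg4, slbp2 and cldnd (a tight-junction claudin). The oocyte form of the TATA-binding protein, tbpl2, had 60.1, 55.4 and 60.9 CPM in ovary and 2 reads in all embryos together, a ratio of 1520 with a 95% counting interval of 420 to 12600. Btg4, which in mouse recruits a deadenylase to maternal RNA, had 574, 677 and 500 CPM in ovary and 1.1, 0.331 and 0.0549 in embryo (log2 10.25 ± 0.59). Neither gene's groups overlapped.

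The egg coat is built from zona pellucida (ZP) proteins, which in fish ovary are made by the oocyte. All 14 tested of 19 listed ZP genes were higher in ovary, against 36.3% of all genes, with a median log2 difference of 8.79 against -0.13. As these are known oocyte genes the direction is no finding, and zp2.1 and zp3 were also markers in the label check. The most counts came from zp2.3, with 5439, 6341 and 8249 CPM in ovary and 23.4, 7.4 and 10.8 in embryo, a log2 difference of 8.91 ± 0.55 (edgeR adjusted p = 1.75e-06). The lowest ovary exceeded the highest embryo many times over. Zp3 had 1397, 1774 and 1605 CPM in ovary and 3.18, 2.76 and 2.58 in embryo (log2 9.13 ± 0.25). The smallest difference in the group was that of zp2.1, at 1333, 127 and 155 CPM in ovary and 5.45, 15.7 and 3.79 in embryo (log2 6.01 ± 1.23, edgeR adjusted p = 0.00344). Together the ZP genes made up 2.39, 2.53 and 3.04% of ovary reads and 0.0094, 0.00773 and 0.0053% of embryo reads. Many ZP genes are near-identical copies, so that reads can be split among them, and the sum is firmer than each value.

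Genes of oocyte identity and growth showed the same separation, with 17 of 17 tested higher in ovary and a median log2 difference of 8.84. They include the oocyte transcription factors figla and nobox, the secreted growth factors gdf9 and bmp15, the meiotic arrest kinase mos and the linker histone h1m. The list names known oocyte genes, so its direction is no finding, and 36.3% of all genes were higher. Bmp15, buc, figla, gdf9 and zar1 were also oocyte markers in the check of the tissue labels. Figla had 36.4, 42.1 and 35.3 CPM in ovary and 0.0649, 0.0552 and 0.0549 in embryo (log2 9.18). Mos had 158, 161 and 111 CPM in ovary and 0.195, 0.166 and 0.110 in embryo (log2 9.79). For neither gene did an embryo come near an ovary. H1m was uneven among the ovaries, at 3091, 1134 and 1161 CPM, and among the embryos, at 7.20, 0.994 and 1.32 (log2 9.17 ± 0.99). Replicate 1 was the highest of both its groups. The least depleted member was rbpms2a, an RNA-binding protein gene, with 9.58% of its ovary level in embryo, while its copy rbpms2b had 1.12%.

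Germ plasm and piRNA pathway genes were lost to a lesser extent. Of 23 tested 21 were higher in ovary, against 36.3% of all genes, 1 was lower and 1 was not called. The median log2 difference of the 23 was 5.01. The 21 called higher all had at least 20 CPM in ovary, and of their ovary level the embryos held a median of 2.91%. By the same selection it was 0.226% for egg coat genes, 0.224% for oocyte identity genes and 30.7% for all 5072 such genes. Members that were not called higher are left out of these medians. Ddx4 (vasa), the germ cell RNA helicase, had 138, 198 and 159 CPM in ovary and 6.75, 5.02 and 4.72 in embryo (log2 4.91 ± 0.23, edgeR adjusted p = 4.27e-07). Nanos3, a translational repressor of germ plasm, had 44.6, 40.4 and 40.3 CPM in ovary and 4.6, 2.21 and 3.62 in embryo (log2 3.59 ± 0.29). In all embryo libraries both genes stood below every ovary.

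Tdrd6, a Tudor-domain protein of the germ plasm, had 394, 503 and 481 CPM in ovary and 11.9, 18 and 12.7 in embryo (log2 5.01 ± 0.23). Dazl, an RNA-binding translation factor of germ cells, was one of 3 genes of the group over 100-fold higher in ovary, with 109, 102 and 67.7 CPM in ovary and 0.259, 0.276 and 0.220 in embryo, which left 0.271% (log2 8.49 ± 0.31). This lay near the median of the egg coat genes. At the other end of the list, celf1, an RNA-binding protein gene with wide roles in splicing and decay, was lower in ovary at 234, 224 and 279 CPM against 403, 554 and 487 (log2 -0.97).

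**Figure D2:**
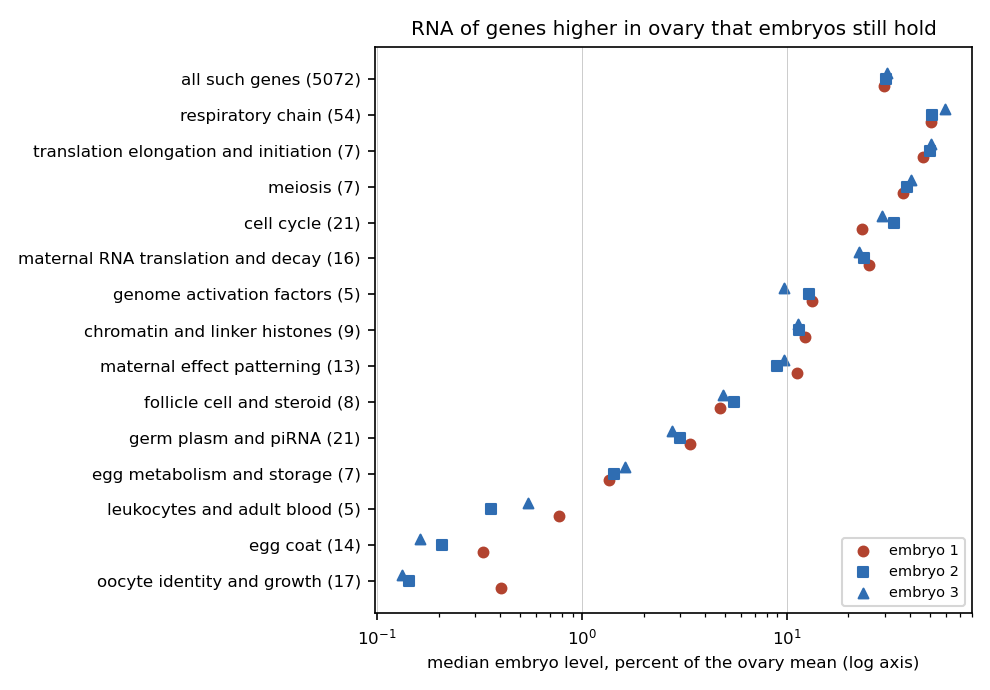
Median embryo level as a percentage of the mean ovary level, on a log axis, for genes called higher in ovary with at least 20 CPM there, by gene list. Each point is 1 of the 3 embryo libraries. All such genes (5072) lie at 29.8, 30.5 and 31%. The medians of the egg coat, oocyte identity and leukocyte and adult blood lists lie below 1%.

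Meiosis genes divided by level. Of 26 listed 15 were tested, 13 of them higher in ovary, 1 lower and 1 not called, beside 36.3% higher of all genes. The median log2 difference of the 15 was 2.70. Sycp2l had 177, 119 and 116 CPM in ovary and 0.713, 0.110 and 0.220 in embryo (log2 8.66). The cohesin subunit rad21l1 had 33.5, 33.1 and 30.9 CPM in ovary and 0.519, 0.607 and 0.439 in embryo (log2 5.94). Both were at least 20 CPM in ovary with groups well apart. Spo11, which makes the DNA breaks that start recombination, had 14.2, 14.8 and 13.1 CPM in ovary and 3 reads in all embryos, a ratio of 242 with a counting interval of 82.5 to 1180. Sycp1 of the synaptonemal complex had 36, 18.3 and 23.0 CPM in ovary and 3.31, 3.26 and 3.18 in embryo (log2 2.99), and sycp2 and mei4 were also higher in ovary (log2 3.13 and 2.89). The recombinase gene dmc1 and the axial element gene sycp3 were near the limit of detection in ovary, dmc1 at 0.268, 0 and 0 CPM and sycp3 at 1.02, 0.568 and 1.09. Sycp3 was higher in embryo, at 3.70, 4.03 and 2.58 CPM (log2 -1.94).

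Regulators of stored RNA fell into oocyte forms that were nearly gone and general forms that were not. Of 30 tested genes of RNA translation and decay 16 were higher in ovary, 8 lower and 6 not called, with a median log2 difference of 0.60, against 36.3% higher and 40.1% lower of all genes. Under upper-quartile scaling, which multiplies the libraries by other factors, 13 were higher and 12 lower and the median was 0.15. That scaling moved all genes as well, with 6078 of 21186 higher, 9999 lower and a median of -0.58. Cpeb1b, which controls poly(A) tail length of dormant RNA, had 1048, 1190 and 1161 CPM in ovary and 3.76, 0.828 and 1.1 in embryo (log2 9.25). The oocyte cap-binding protein gene eif4e1b had 249, 190 and 220 CPM in ovary and 2.01, 2.1 and 1.32 in embryo (log2 6.92). No embryo value approached an ovary value for either. Among general decay factors, the exonuclease xrn1 had 88.0, 110 and 112 CPM in ovary and 102, 108 and 96.5 in embryo (log2 0.02, 95% interval inside 2-fold). The scaffold of the CCR4-NOT deadenylase, cnot1, was lower in ovary, at 258, 234 and 245 CPM against 636, 694 and 694 (log2 -1.46), while its catalytic subunit cnot7 was higher, at 29.4, 30.8 and 23.1 against 6.42, 6.96 and 7.80 (log2 1.98). Pum2, a repressor of RNA translation, was also lower in ovary (log2 -3.11).

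Factors that open the zygotic genome were divided as well, with 5 of 14 higher in ovary, 8 lower and 1 not called, a share of higher genes close to the 36.3% of all genes. Nanog, a homeodomain activator of the first zygotic genes, had 669, 408 and 486 CPM in ovary and 2.79, 2.48 and 1.21 in embryo (log2 7.92 ± 0.37, edgeR adjusted p = 4.83e-07). Its partner pou5f3 had 83.5, 59.8 and 55.2 CPM in ovary and 9.53, 8.50 and 6.42 in embryo (log2 3.02 ± 0.24). Sox19b, the maternal SoxB1 activator, was higher in embryo, at 61.7, 90.3 and 94.1 CPM against 37.5, 27.8 and 28.6 (log2 -1.39 ± 0.21). The 3 partners thus differed in direction, and in none of them did the groups overlap. The zygotic gene sox19a had 0.751, 0 and 0.256 CPM in ovary and 328, 392 and 348 in embryo (log2 -9.98 ± 0.56). The chromatin insulator gene ctcf was lower in ovary, with 91.3, 96.8 and 91.7 CPM against 463, 421 and 419 (log2 -2.22 ± 0.14), as were the acetyltransferase genes ep300a and ep300b and the remodeller smarca4a.

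Maternal-effect genes, whose loss in the mother disturbs axis formation or cleavage of the embryo, gave 14 higher, 6 lower and 4 not called of 24 tested, and 11 higher and 10 lower under upper-quartile scaling. In the main fit 36.3% of all genes were higher and 40.1% lower, and under upper-quartile scaling 6078 of 21186 were higher and 9999 lower. Mid1ip1l, which acts in germ plasm assembly and cytokinesis, had 1230, 1229 and 1243 CPM in ovary and 31.8, 37.3 and 39.1 in embryo (log2 5.10 ± 0.19). Sybu (Syntabulin), which carries the dorsal determinant on microtubules, had 475, 411 and 474 CPM in ovary and 1.69, 1.38 and 2.14 in embryo (log2 8.02 ± 0.23). Both genes had little spread within a group. Beta-catenin showed another pattern. Ctnnb2, the maternal copy that specifies the dorsal side, had 356, 351 and 315 CPM in ovary and 452, 315 and 398 in embryo, with a log2 difference of -0.19 and a 95% interval of -0.58 to 0.21. Its copy ctnnb1 had 210, 239 and 256 CPM in ovary and 1296, 1142 and 1249 in embryo (log2 -2.39 ± 0.17). The ovary and embryo values overlapped for ctnnb2 and not for ctnnb1.

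Receptors and enzymes that load the egg stood high in ovary. The lipoprotein receptor vldlr, through which fish oocytes take up yolk precursor, had 617, 651 and 682 CPM in ovary and 8.56, 9.27 and 10.6 in embryo (log2 6.1 ± 0.18). Its relative lrp13 had 902, 943 and 1027 CPM in ovary and 2.46, 1.21 and 1.15 in embryo (log2 9.23 ± 0.35). Gyg1a, which primes glycogen synthesis, had 1441, 1236 and 1562 CPM in ovary and 16.1, 11.8 and 15.2 in embryo (log2 6.62 ± 0.23). In all 3 the ovaries were alike and far from the embryos. Of 13 tested genes of egg metabolism 8 were higher, 2 lower and 3 not called, beside 36.3% higher and 40.1% lower of all genes.

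Some oocyte RNAs are oocyte forms of a general gene. Of 26 pairs of an oocyte form and a related gene 24 had both members tested. In 8 of the 24 the oocyte form was higher and the relative lower in ovary. The first of each pair was chosen because it was known as an oocyte gene, so its direction is no finding. Of all genes tested 40.1% were lower in ovary, a share that 8 of 24 does not exceed. The replication helicase subunit mcm3l had 482, 437 and 487 CPM in ovary and 1.75, 0.442 and 0.769 in embryo (log2 8.92 ± 0.41), while mcm3 had 4.29, 5.45 and 5.57 CPM in ovary and 358, 482 and 416 in embryo (log2 -6.36 ± 0.21). The order was thus reversed in every library. The neighbouring subunit mcm6 behaved like mcm3, at 2.47, 3.81 and 5.70 CPM in ovary and 436, 522 and 480 in embryo (log2 -6.92), whereas mcm4 and mcm5 were kept within 2-fold.

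The poly(A)-binding protein pabpc1l had 592, 429 and 488 CPM in ovary and 1.43, 0.221 and 0.604 in embryo (log2 9.42 ± 0.49). Its relative pabpc1a had 886, 640 and 684 CPM in ovary and 2632, 1744 and 1932 in embryo (log2 -1.51 ± 0.23). The remaining pairs with opposite calls were the linker histones h1m and h1f0 (log2 9.17 and -4.41), the RNA decay factors cth1 and zfp36l1a (9.17 and -1.09), the lamins lmnl3 and lmna (8.46 and -0.49), the histone chaperones npm2b and npm1a (6.05 and -1.41), the cohesins rad21l1 and rad21a (5.94 and -1.41) and the claudins cldnd and cldnb (10.23 and -6.33). Other pairs were both higher in ovary, such as the cyclins ccna1 and ccna2 (9.97 and 1.17), and sox19b and sox19a were both lower. The call of lmna was lost without replicate 1 or replicate 3 of either tissue.

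**Figure D3:**
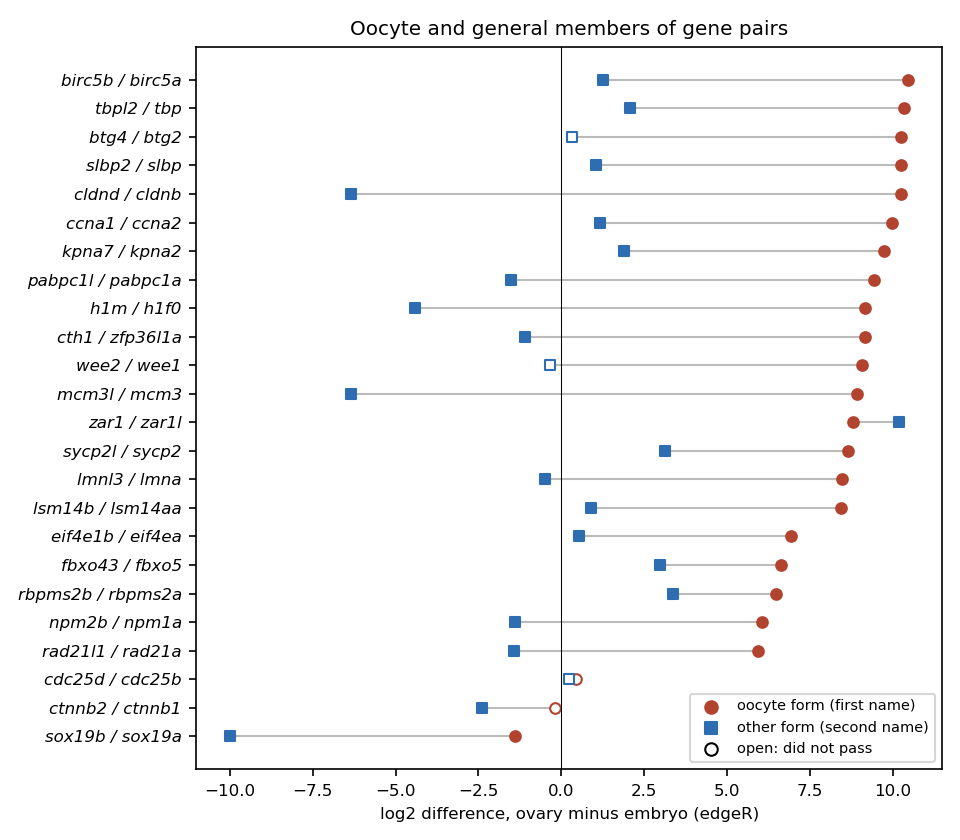
Log2 difference, ovary minus embryo, of the oocyte form and of its relative in each of the 24 gene pairs with both members tested, joined by a line. In 8 pairs the 2 points lie on opposite sides of 0 and both were called. Of all genes tested 40.1% were lower in ovary.

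Somatic cells of the ovary were read from follicle cell genes. Summed over 5 follicle cell markers the ovaries held 45.1, 107 and 67.3 CPM, the embryos between 7.17 and 7.95 and wild-type testis between 388 and 955. Of 31 tested follicle and steroid genes 20 were higher in ovary, 2 lower and 9 not called, with a median log2 difference of 2.68. The shares over all genes tested were 36.3% higher and 40.1% lower. Cyp19a1a, the ovarian aromatase that makes oestrogen, had 22.6, 54.6 and 41.7 CPM in ovary and 2 reads in all embryos, a ratio of 1010 with a counting interval of 281 to 8390. Inha, a subunit of inhibin, had 28.6, 33.3 and 30.9 CPM in ovary and 0.0649, 0.0552 and 0.110 in embryo (log2 8.52). The granulosa transcription factor gene foxl2 was low in both, at 3.06, 2.44 and 4.80 CPM in ovary and 6.75, 5.13 and 5.11 in embryo, and was not called. It is among the 5 markers summed above, all of them members of this list, and made up most of the embryo sums. Fsta, an activin antagonist, was the largest exception, lower in ovary at 0.804, 1.02 and 1.41 CPM against 94.9, 98.1 and 125 (log2 -6.62).

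Leukocyte and adult blood genes were also higher in ovary than in embryo, in 15 of 16 tested, against 36.3% of all genes. The other gene, lcp1, was lower (log2 -2.44). The median log2 difference was 5.62, or 5.12 with undetected genes set at their bound. The invariant chain gene cd74a, of antigen presentation, had 39.9, 34.1 and 77.8 CPM in ovary and 0.389, 0.552 and 0.275 in embryo (log2 6.94). Ovary replicate 3 was the highest, and the summed level of 19 such markers was 203, 216 and 380 CPM in ovary and between 18.1 and 25.4 in embryo. Wild-type testis held more than every ovary, with sums of 718, 1424 and 787 CPM. The macrophage gene mpeg1.1 had 1.56, 2.21 and 4.55 CPM in ovary and no read in embryo.

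Of 18 tested liver-type genes 8 were higher, 7 lower and 3 not called, shares near the 36.3 and 40.1% of all genes. The 7 tested vitellogenin genes were among the higher, all with replicate 1 highest and replicate 3 lowest, and the liver-type genes called higher fell from 8 to 2 without embryo replicate 1. The embryo, in which the yolk syncytial layer makes lipoproteins, was higher for apoa1a, at 1756, 1007 and 1378 CPM against 5.95, 1.14 and 1.15 (log2 -8.95), and for tfa (transferrin), at 992, 1322 and 1150 against 87.1, 16.1 and 8.32 (log2 -4.95). What part of the ovary's level of these genes came from liver tissue was not tested.

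In the embryo the genes over 100-fold above ovary were led in counts by keratin and lipoprotein genes. Krt4, a keratin of the embryo's outer layer, had 7480, 6292 and 6538 CPM in embryo and 26.1, 21.4 and 23.2 in ovary (log2 -8.16 ± 0.25, edgeR adjusted p = 1.55e-07). All embryos were more than 100-fold above all ovaries. Of 31 tested epidermis and ionocyte genes 29 were lower in ovary, against 40.1% of all genes, and the median log2 difference was -6.48. The keratins krt5, cyt1, cyt1l, krt92 and krt17 had log2 differences between -10.00 and -8.20. Reads of keratin copies can be split among them. The 31 genes made up 2.66, 2.19 and 2.19% of embryo reads and 0.268, 0.201 and 0.162% of ovary reads, and in ovary most of these belonged to 1 gene. Epcam, an epithelial adhesion molecule, was higher there, at 2232, 1504 and 1109 CPM against 238, 283 and 227 (log2 2.70 ± 0.28). Krt94 was the only other epidermal gene higher in ovary (log2 4.27).

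The 12 named genes with the largest differences in favour of embryo were ugt1b7 and cyp2k16 and cyp2aa11 (enzymes of detoxification families), her3 (a repressor of neurogenesis in the neural plate), lye, pvalb9 (a parvalbumin), sfrp5 (a Wnt antagonist), actc1a and myl10 (muscle actin and myosin light chain), dlx3b (placodes), foxd3 (neural crest) and foxb1a (neural tube). Her3 had 15.7, 32.5 and 22.5 CPM in embryo and no read in ovary, at least 407-fold higher. Ugt1b7 had 21.8, 33.1 and 29.9 CPM in embryo and no read in ovary, at least 489-fold higher, though it belongs to a family of near-identical copies. Foxd3 had 37.0, 31.4 and 23.6 CPM in embryo and 1 read in all ovaries, a ratio of 1570 with a counting interval of 282 to 62200. In none of the 3 did an ovary exceed 1 read.

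Nervous system genes were lower in ovary almost throughout, against 40.1% of all genes. Of 34 tested brain region genes 32 were lower and 2 not called, with a median log2 difference of -6.13, or -5.92 with undetected genes at their bound, and of 34 tested progenitor and neuron genes 32 were lower and 2 not called, with a median of -6.10. Pax6a, a regulator of eye and forebrain, had 70.0, 66.8 and 64.4 CPM in embryo and 0.107, 0.114 and 0 in ovary (log2 -9.64 ± 0.39). Elavl3, an RNA-binding protein of young neurons, had 248, 136 and 209 CPM in embryo and 0.751, 0.511 and 0.320 in ovary (log2 -8.51). The groups were wide apart for both. The genes not called were eng1b and mafba in the first list and onecut1 and sox11b in the second. Sox11b was kept within 2-fold, at 218, 225 and 223 CPM in embryo and 277, 279 and 232 in ovary (log2 0.24), while its copy sox11a was lower in ovary (log2 -6.36).

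Neural crest, the migratory cell population at the edge of the neural tube that the series was built around, had 20 of 26 tested genes lower in ovary, 3 higher and 3 not called, with a median log2 difference of -4.02. Crestin had 144, 118 and 151 CPM in embryo and 0.590, 0.511 and 0.640 in ovary (log2 -7.87 ± 0.22). Sox10, needed for crest-derived pigment, glia and neurons, had 45.6, 36.9 and 41.4 CPM in embryo and 0.322, 0.284 and 0.384 in ovary (log2 -6.94 ± 0.27). Neither gene's ovary values passed 1 CPM. Ets1 had similar levels in both tissues and id2a, an inhibitor of basic helix-loop-helix factors, was higher in ovary (log2 2.56). In the neighbouring placodes 20 of 21 genes were lower in ovary, with a median of -5.69. Over all genes tested 40.1% were lower and 36.3% higher.

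Kctd15a itself belonged to the embryo, with 55.6, 50.1 and 38.5 CPM there and 0.0536, 0.170 and 0 in ovary, a log2 difference of -9.16 ± 0.48 (edgeR adjusted p = 8.03e-07). Its copy kctd15b had 4.22, 3.92 and 3.62 CPM in embryo and 3.91, 1.59 and 2.37 in ovary and was not called (log2 -0.57, 95% interval -1.48 to 0.33, edgeR adjusted p = 0.212). Ovary replicate 1 lay within the range of the embryos for kctd15b and the other ovaries below it. Of the AP-2 genes, tfap2a had 198, 170 and 133 CPM in embryo and 31.2, 24.4 and 19.4 in ovary (log2 -2.74), and tfap2c had 266, 306 and 238 against 11.6, 7.61 and 5.18 (log2 -5.05). Tfap2b was lower as well (log2 -2.41), whereas tfap2d and tfap2e were higher in ovary at 5 CPM or less (log2 4.59 and 2.37).

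Mesoderm genes of the trunk and tail were also mostly lower in ovary, beside 40.1% of all genes. Of 30 tested somite muscle genes 27 were lower in ovary, 1 higher and 2 not called, with a median log2 difference of -7.00, or -6.45 with undetected genes at their bound. Myod1, which commits cells to muscle, had 70.7, 41.9 and 59 CPM in embryo and 0.483, 0.341 and 0.128 in ovary (log2 -7.43 ± 0.40). The slow muscle myosin smyhc1 had 506, 315 and 537 CPM in embryo and 0.858, 0.114 and 0.448 in ovary (log2 -9.86 ± 0.50). Embryo replicate 2 was the lowest embryo for both, and for tpma, tnnc2, cmn and col2a1a too. Fast muscle genes such as mylpfa, at 2.53, 1.6 and 3.35 CPM, were still low in the embryos. In presomitic mesoderm and tailbud 28 of 32 genes were lower in ovary, with a median of -5.71, among them tbx16 (log2 -9.21) and tbx6 (log2 -7.76). Evx1, which patterns the tail, was higher in ovary at 11.7, 15.4 and 17.3 CPM against 2.34, 0.718 and 1.70 (log2 3.23).

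Of 45 tested Hox genes, which set position along the body, 40 were lower in ovary, 2 higher and 3 not called. Their median was -6.44, and 40.1% of all genes tested were lower. Hoxc8a had 73.6, 69.7 and 53.7 CPM in embryo and 0.268, 0.284 and 0.128 in ovary (log2 -8.11). Hoxb13a was one of the exceptions, at 1.34, 1.93 and 0.768 CPM in ovary and 0.259, 0.0552 and 0.0549 in embryo (log2 3.44). For both genes the 3 values of each tissue stood apart.

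Of 16 tested notochord genes 13 were lower in ovary, and of 9 hatching gland genes 7 were lower and 2 higher. Over all genes tested 40.1% were lower and 36.3% higher. Shha, the midline signal, had 40.0, 30.1 and 37.6 CPM in embryo and 0.0536, 0.170 and 0 in ovary (log2 -8.74). The hatching enzyme gene he1a had 420, 369 and 518 CPM in embryo and 0.912, 0.227 and 0.320 in ovary (log2 -9.75). Both were far apart between tissues. The 2 hatching gland genes higher in ovary were cpa5, with 1.93, 3.24 and 27.0 CPM in ovary and no read in embryo (at least 185-fold higher), and the secretory pathway regulator xbp1 (log2 1.5). Blood and vessel genes were less one-sided, with 13 of 23 lower, 2 higher and 8 not called and a median of -1.84. Regulators of early blood such as tal1 (log2 -5.64) and gata2a (log2 -6.39) were lower in ovary, as were the vessel genes kdr (log2 -4.07), fli1a (log2 -3.71) and etv2 (log2 -5.28). Genes of both kinds were among those not called, such as kdrl, tie1 and cdh5 of vessels and spi1b, alas2 and urod of blood.

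Signal ligands were an embryo group, with 41 of 46 tested lower in ovary, 3 higher and 2 not called and a median of -4.88. The shares over all genes tested were 40.1% lower and 36.3% higher. The Wnt ligand wnt11r had 76.6, 94.4 and 90.3 CPM in embryo and 0.429, 0.398 and 0.192 in ovary (log2 -7.95). Ndr1, a Nodal ligand with maternal RNA, was higher in ovary at 4.50, 2.44 and 0.896 CPM against 0.130, 0.110 and 0.0549 (log2 4.66). Bmp6 (log2 1.05) and wnt8a (log2 0.91) were the other ligands called higher. Gdf3, the maternal Nodal co-ligand, was counted with the maternal-effect genes and not here. It had 983, 405 and 685 CPM in ovary and 21.1, 15 and 14.4 in embryo (log2 5.36). In the germ cell guidance pathway the ligands cxcl12a (log2 -3.73) and cxcl12b (log2 -5.00) were lower in ovary.

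**Figure D4:**
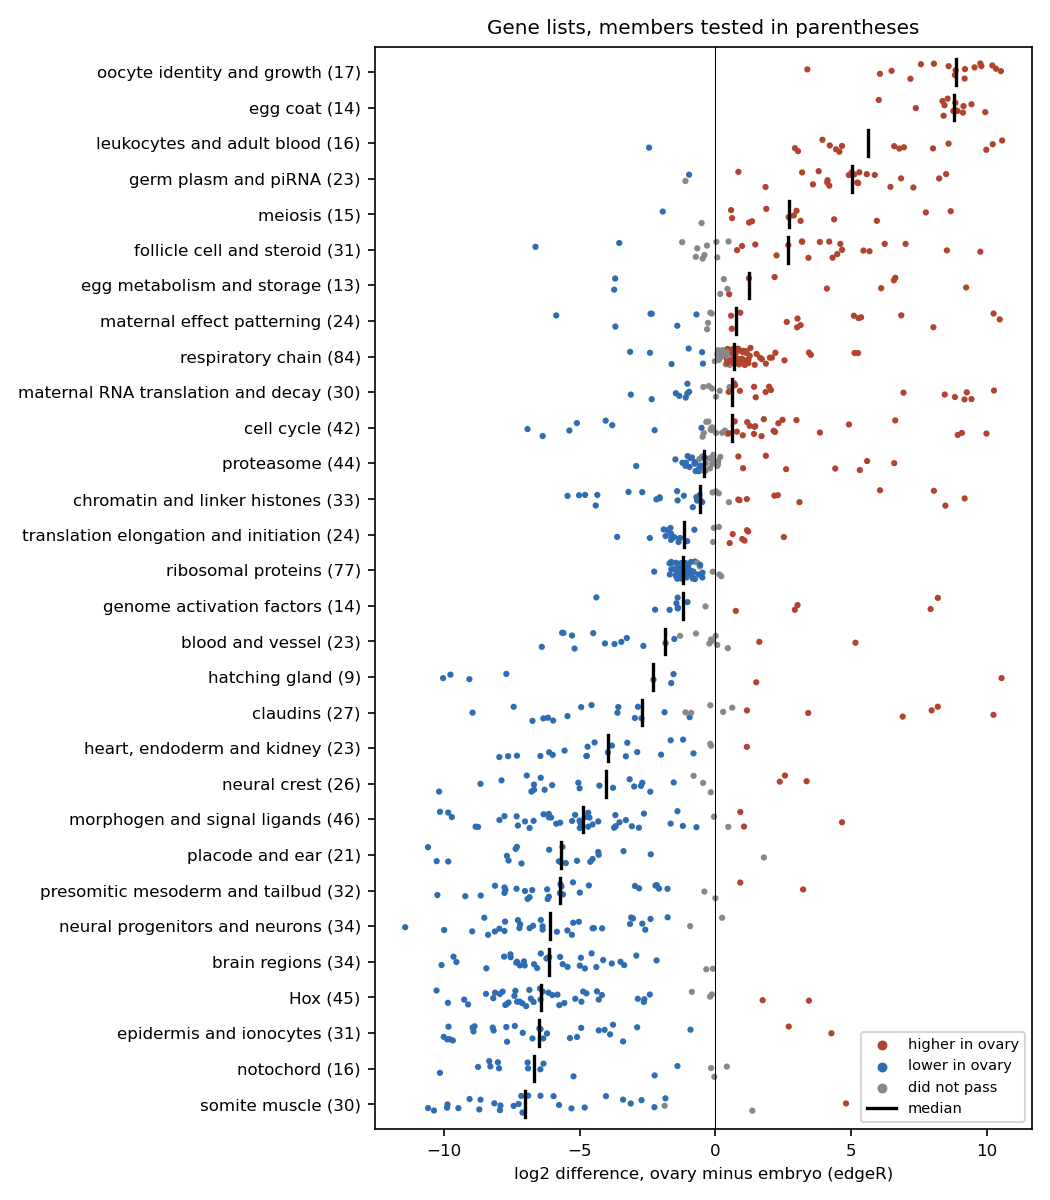
Log2 difference, ovary minus embryo, of each tested member of the gene lists, with the median of each list as a bar. Egg coat and oocyte identity medians stand at 8.79 and 8.84, those of brain, epidermis and somite muscle at -6.13, -6.48 and -7.00, and the median of all tested genes is -0.13.

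Between the extremes lay RNAs present at like levels. A gene was described as kept when its 95% interval stayed within 2-fold and all 6 libraries had at least 5 CPM, which held for 2512 genes, 11.9% of those tested. They made up 20.9, 21.4 and 21.1% of ovary reads and 21.3, 21.5 and 21.5% of embryo reads. Of these genes 372 were also called higher and 239 lower, by small amounts. Among those with the most counts were actb1, hdlbpa, rpl12, ppiaa, rpl19, eef1g, nap1l1, ddx3b and pcna. The RNA-binding protein gene hdlbpa had 914, 1114 and 1243 CPM in ovary and 1186, 1280 and 1329 in embryo (log2 -0.21, 95% interval -0.62 to 0.19), and its groups overlapped. Actb1, a cytoskeletal actin, was slightly higher in ovary, at 2399, 2267 and 2891 CPM against 1968, 1509 and 1869 (log2 0.50, edgeR adjusted p = 0.0418), and this call was lost without ovary replicate 3, without embryo replicate 2 or 3 and under upper-quartile or total-count scaling.

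Only genes with at least 5 CPM in all 6 libraries could be kept, and of the 8852 such genes 28.4% were. Of the 38 proteasome subunits at that level 20 were kept, of 75 respiratory chain genes 26 and of 30 cell cycle genes 12, and the last 2 shares, 34.7 and 40%, lay nearer to that of all such genes than the 52.6% of the proteasome. Of the 84 respiratory genes 60 were called higher in ovary, with a median log2 difference of 0.70, which became 31 genes and 0.25 under upper-quartile scaling. Of the 44 proteasome genes 8 were higher and 20 lower in ovary, and the lower ones became 33 under that scaling. Of 42 cell cycle genes 22 were higher and 8 lower, which became 19 and 16 under that scaling. Among all 21186 genes tested 36.3% were higher and 40.1% lower, and under that scaling 6078 were higher and 9999 lower. Ccnb1, a mitotic cyclin, had 852, 1166 and 1102 CPM in ovary and 203, 279 and 225 in embryo (log2 2.14), while ccnb2 had 655, 883 and 841 against 21.3, 30.3 and 27.2 (log2 4.91). The cyclins of growth-phase control were divided. Ccnd1 had 5.95, 6.65 and 20.2 CPM in ovary and 475, 453 and 428 in embryo (log2 -5.37). Ccne2 was lower too, at 1.98, 3.24 and 2.75 against 66.4, 123 and 84.3 (log2 -5.10). Ccnd3 (log2 3.84) and ccne1 (log2 1.70) were higher in ovary, and ccnd2a was not called (log2 -0.11).

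Ribosomal protein genes moved together, with 72 of 77 lower in ovary and 5 not called, and a median of -1.19. They took 2.3, 2.61 and 2.79% of ovary reads and 5.43, 5.7 and 6.29% of embryo reads. Rpl5a, rps26l, rpl22l1 and rpl35 had the smallest p-values, and rpl35 had 293, 243 and 286 CPM in ovary and 773, 704 and 693 in embryo (log2 -1.40). Of 24 translation factors 14 were lower in ovary, including eef1a1l1 (log2 -2.42), and 7 higher, including eef1da (log2 2.52). Of 33 chromatin genes 18 were lower and 10 higher in ovary. Among all genes tested 40.1% were lower and 36.3% higher. Tet3, an enzyme that oxidises methylated DNA, had 3.86, 6.36 and 7.10 CPM in ovary and 257, 229 and 267 in embryo (log2 -5.44), and dnmt1, which maintains DNA methylation, was higher in ovary at 919, 1361 and 1217 against 219, 295 and 263 (log2 2.17).

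**Figure D5:**
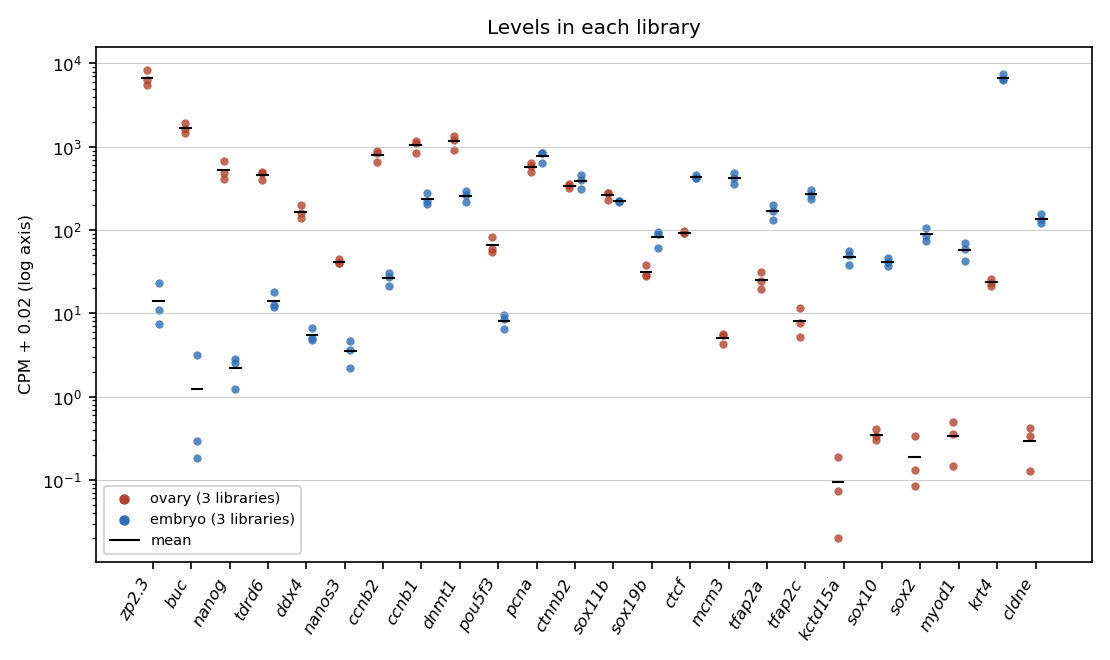
CPM of 24 genes in each of the 3 ovary and 3 embryo wild-type libraries, on a log axis. Points of one tissue lie close together beside the distance between tissues for genes such as zp2.3, krt4 and kctd15a, and overlap for ctnnb2.

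An RNA kept at the gene level can still be made of other transcripts. Transcript counts could be assigned to 2035 genes with at least 2 tested transcripts, and the mix of transcripts differed between ovary and embryo in 358 of them, 17.6%. Among genes kept within 2-fold the share was 84 of 443, 19%. The main transcript, holding most of the gene's counts in each tissue, was a different one in 17 of these 84, beside 98 of all 358. Called or not, it was a different one in 334 of the 2035 genes tested. Transcript NM_001201420 of fxyd6l, a regulator of the sodium pump, made up 98.1, 97.9 and 98.3% of its gene in embryo and 1.19, 0 and 1.4% in ovary, where NM_001201418 held 75.4, 77.1 and 68.6%. Among genes not kept, in mapre1a, a microtubule end-binding protein gene, NM_199864 held 99.5, 98.7 and 98.8% in ovary and 3.67, 1.21 and 2.89% in embryo. In spsb4a, which was kept, XM_005171293 held 98.9, 97.5 and 97.1% in ovary and 3.92, 0.845 and 1.42% in embryo. In each gene all 3 replicates of a tissue had the same main transcript.

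Kctd15 mutant ovary against kctd15 mutant embryo, 6 libraries that share none with the comparison above, gave the same tissue order for most genes. Of 7431 genes higher in wild-type ovary and tested in mutants 6381, 85.9%, were called higher there too and 11 were called lower, where 34.8% of all genes tested in mutants were higher. Of 8099 lower genes 6433, 79.4%, were called lower there and 18 higher, where 34.7% of all were lower. Respiratory chain and liver-type genes repeated less often. Of the 66 respiratory chain genes called in wild type 28 were called in the same direction in mutants. Of the 15 liver-type genes called in wild type 2 were. Mutant ovary replicate 3 stood apart with a sum of liver markers of 175500 CPM, against 96.5 and 56.9 in the other mutant ovaries, and without it the shares were 86.9 and 85.5%. The stricter limit of over 100-fold was also met in mutants by 263 of the 308 ovary genes and 221 of the 352 embryo genes, the latter share being 62.8% with that library and 76.7% without it. The tissue difference itself differed by genotype for 119 of 22765 genes, 0.523%, and for 233 without that library.

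Wild-type testis showed which of these RNAs were shared by the other gonad. Of the 308 genes over 100-fold higher in ovary than embryo 159 had a testis level under 1% of the ovary level and 17 one over 50%, with a median of 0.818%. Among list members called higher in ovary with at least 20 CPM there, egg coat genes had a median testis level of 0.056% of ovary. Germ plasm and piRNA genes selected in the same way had a median of 177%. Ddx4 was at 639 ± 69.2 CPM (SD, n = 3) in testis, above all 3 ovaries. The testis libraries also held a median of 2.32% of the embryo level of the 352 embryo genes.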

How the data were processed

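RNA was extracted with TRIzol and 100 ng per sample went into a stranded mRNA kit, per the labels. Per the submitters' processing notes the tools were Trimmomatic 0.36, kallisto 0.43.0 and edgeR, and the build GRCz10. The deposited gene table holds estimated counts, not whole numbers, made by the authors. The authors also deposited a normalised signal, CPM per gene on an effective library size, which was used in alternatives only. The authors' deposited transcript table also holds estimated counts, and 24488 of its 54435 accessions were matched to a gene name. Genome positions are not given because the reference gene table is of another build.

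Gene counts were rounded and filtered with edgeR's filterByExpr (minimum count 10, total 15), scaled by TMM and tested with edgeR 4.0.16 (quasi-likelihood, two-sided) in R 4.3.3, on the 3 wild-type ovary and 3 wild-type embryo libraries with no covariate. P-values were adjusted by Benjamini-Hochberg over all genes tested. The mutant comparison was fitted separately, and the genotype comparison as an interaction over 12 libraries. Transcript mixes were tested with diffSpliceDGE, using genes whose matched transcripts summed to the gene's count within 0.8 to 1.25 in each library. Counting intervals are exact 95% intervals and, like the floor of 3 counts over a group, cover counting error only. In simulated counts for the wild-type comparison over 21255 genes, 6, 22, 96 and 100% of 50 genes changed 1.5-, 2-, 4- and 10-fold were called. The simulation changed few genes and gave all genes the same spread, whereas 76.3% of genes were called in the data. These shares therefore do not give the sensitivity of the comparison itself.

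Named genes were the 12 largest differences each way with at least 20 CPM and a gene name, the 10 most abundant kept genes, the smallest p-values of each list with further list members by role, the gene pairs, kctd15a, kctd15b and the tfap2 genes. One gene that this rule names is not reported here. The genes, lists and classes were chosen with earlier results of these data known. The biological replicates of each group differed by more than sampling noise. Alternatives were DESeq2 1.42.0, limma 3.58.1 on log2 of the deposited CPM, upper-quartile scaling, no filter, each library left out and a replicate block. The limit of over 100-fold and the transcript sum limit were chosen after seeing the data.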

Additional observations from a re-analysis of the deposited data

Results flagged for a closer look

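In 7 genes the ovary against embryo difference itself differed between wild type and kctd15 mutants in the interaction test of edgeR. They were taken from the named genes with the smallest p-values over all 12 libraries or without mutant ovary replicate 3. Nfil3-3, also among those without that library (edgeR adjusted p = 0.000202), is left out because it missed the threshold over all 12 (edgeR adjusted p = 0.057). The values below are the wild-type minus the mutant log2 difference, with CPM on the scale of the 12 libraries. No cause was tested. The number of such genes depended on the fit, as given below.

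Hmcn2, a hemicentin of the extracellular matrix, had a value of 5.22 ± 0.31. It had 32.2, 26.2 and 20.2 CPM in wild-type ovary and 0.820, 0.971 and 0.784 in mutant ovary, with 247, 315 and 303 CPM in wild-type embryo and 311, 404 and 362 in mutant embryo. The ovaries of the 2 genotypes did not overlap.

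The circadian clock genes per1b, ciarta and per3 were lower in mutant than in wild-type embryos in all 3 libraries of each. Per1b had a value of -6.43, with 43.6, 124 and 88.1 CPM in wild-type embryo and 1.48, 0.967 and 0.608 in mutant embryo. Ciarta had a value of -3.27, with 42.5, 44.4 and 29.6 CPM in wild-type embryo and 3.56, 4.09 and 3.54 in mutant embryo. Per3 had a value of -3.09, with 29.2, 47.3 and 52.3 CPM in wild-type embryo and 4.98, 3.69 and 4.97 in mutant embryo. The labels give no time of day at collection.

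Iqgap2, anxa6 and layna had higher values in every mutant ovary than in any wild-type ovary. Iqgap2 had a value of -3.14, with 5.90, 4.67 and 3.63 CPM in wild-type ovary and 28.0, 22.7 and 25.4 in mutant ovary, and 140, 161 and 167 CPM in wild-type embryo and 93.4, 108 and 85.2 in mutant embryo. Anxa6, an annexin, had a value of -4.54, with 4.75, 1.89 and 3.44 CPM in wild-type ovary and 21.8, 45.0 and 39.3 in mutant ovary, and 56.0, 48.8 and 37.8 CPM in wild-type embryo and 27.7, 21.0 and 15.8 in mutant embryo. Layna had a value of -7.76, with 0.157, 0 and 0.0615 CPM in wild-type ovary and 5.74, 3.28 and 3.64 in mutant ovary, and 3.95, 3.55 and 2.49 CPM in wild-type embryo and 1.15, 0.796 and 0.442 in mutant embryo. In all 3 genes the embryo values of the genotypes were apart too, in the other direction.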

How the results depend on the processing

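With DESeq2 7808 genes were higher and 8356 lower in ovary, and with 1 library left out 7176 to 7813 and 7985 to 8954. Upper-quartile scaling moved the median of all genes from -0.13 to -0.58 and gave 6078 higher and 9999 lower, so that 37.8% of calls were higher in place of 47.5%. It also turned the direction of ddx3b, from log2 0.41 to -0.048 (edgeR adjusted p = 0.786), by the shift in scale alone. Of 197 named genes 180 kept their direction and side of the threshold in every alternative. Many of them were named for a large difference or a small p-value in these same libraries, so this share does not carry over to all calls. Actb1, eif4ea, prc1a, patl1, ddx3b, lmna and rpl12 were among the named genes that lost their call in at least 1 alternative.

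The counts of RNAs found in 1 tissue only depended on the limit. At 0.5 CPM there were 697 ovary-only and 1583 embryo-only RNAs, and upper-quartile scaling gave 428 embryo-only RNAs. Leaving out 1 library gave 147 to 197 ovary-only RNAs (197 without embryo replicate 1) and 283 to 432 embryo-only RNAs (432 without ovary replicate 1). RNAs over 100-fold higher numbered 307 to 349 in ovary and 353 to 457 in embryo with 1 library left out. The limits of these classes apply to every library, so leaving 1 out loosens them, and the counts can rise for that reason alone. Kept genes numbered 1991 to 2618. Genes whose tissue difference differed by genotype were 773 with DESeq2 and between 19 and 233 with 1 library left out, 19 without mutant embryo replicate 3. Genes with a different transcript mix were 205 with Simes' method.

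The deviations of ovary and embryo samples with the same replicate number had low positive correlations of 0.185, 0.0476 and 0.0505. No correlations of samples with different numbers stand beside them, so these values cannot decide whether the numbers pair the samples. A fit with the replicate number as a block gave 7641 genes higher, 8471 lower and 2741 kept, 7026 and 7249 in mutants, 119 by genotype and 266 transcript mixes. Motifs in promoters were not run, as no promoter sequence was used here.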

Other observations

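Claudins, the proteins of tight junctions, divided between the tissues. Of 27 tested 6 were higher in ovary, 16 lower and 5 not called, beside 36.3% higher and 40.1% lower of all genes. Cldng had 834, 1224 and 1070 CPM in ovary and 4.15, 3.86 and 2.75 in embryo (log2 8.18), and cldn11a, 73.6, 97.6 and 36.7 against 0.389, 0.0552 and 0.384 (log2 7.96). Cldne of the outer skin had 155, 132 and 122 CPM in embryo and 0.107, 0.398 and 0.320 in ovary (log2 -8.94), and cldni 86.8, 77.7 and 95.8 against 0.483, 0.852 and 0.128 (log2 -7.43). Cldn7b was kept, at 124, 140 and 120 CPM in ovary and 156, 158 and 125 in embryo.

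Embryo replicate 1 held more RNA of the 308 ovary genes than its replicates. On the scale of all 33 libraries the median of these genes was 0.317% of the ovary level in embryo replicate 1 and 0.151 and 0.143% in replicates 2 and 3, and the medians of the other groups of embryos lay between 0.123 and 0.183%.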
